A study of Mus musculus with 12 samples.

Results

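The FGF feedback genes *Etv1*, *Etv4*, *Etv5*, *Spry1*, *Spry2*, *Spry4*, *Spred1*, *Spred2*, *Spred3* and *Dusp6* were followed in the transcriptome of whole mouse adrenals. They were chosen by gene symbol, and all 10 were found among the 39017 genes of the count table. All 10 were also among the 14953 genes with enough counts to be tested. In adrenals with stabilized β-catenin (βCat-GOF) the ETS factors *Etv4* and *Etv5* rose by 4.29-fold and 1.71-fold, while 8 members did not pass the test in either direction. *Dusp6*, *Spry1* and *Spred1* had log2 fold changes just below 0, and the group means of the 5 remaining members were higher in βCat-GOF adrenals without passing the test.

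The βCat-GOF mice carried *AS*Cre/+ together with 1 *Ctnnb1* allele whose exon 3 is flanked by loxP sites, written Ctnnb1fl(ex3)/+, and the 6 controls (Ctrl) are labelled *AS*Cre/+ alone. The titles of the controls call them wild type instead, so whether they carry Cre is not settled by the labels. Both groups held 6 females aged 10 to 11 weeks on a mixed sv129-C57Bl/6 background. Cre comes from the *Cyp11b2* (aldosterone synthase, AS) locus, which is active in the zona glomerulosa (zG), the outer cortical layer that makes aldosterone, so recombination in mice with Cre starts in these cells. RNA was taken from the entire adrenal after fat was removed, and every value therefore averages the zG with the zona fasciculata (zF), medulla, capsule and vessels. The comparison asks which transcripts differ when β-catenin is stabilized in the zG.

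Fibroblast growth factors bind receptor tyrosine kinases, which act through Ras, Raf and MEK on the kinase ERK. ERK activity induces transcription factors of the PEA3 group of the ETS family (*Etv1*, *Etv4*, *Etv5*) and, with them, proteins that dampen the same cascade. Sprouty proteins (*Spry*) and the related Spred proteins act upstream, on Ras and Raf, and *Dusp6* encodes a phosphatase that removes phosphate from ERK itself. Because these transcripts commonly follow FGF receptor activity, they are widely read together as its output, and in the adrenal cortex FGF signalling takes part in the development and upkeep of the gland.

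Between 14090378 and 25625494 counts per Ctrl mouse and between 13484675 and 24951480 per βCat-GOF mouse fell on genes. Normalized counts are the counts divided by DESeq2 size factors, and adjusted p is the Benjamini-Hochberg value of edgeR's quasi-likelihood test over all 14953 genes, with a call at an adjusted p under 0.05. Nothing in the labels says whether the mice came from separate litters, and p-values measure the spread between these samples. In 3 pairs of mice the label of 1 mouse extends that of the other, and the labels of the groups begin with different numbers (1367 in all 6 Ctrl mice, 1369 in 5 of the 6 βCat-GOF mice), so whatever this number stands for, which the labels do not say, and the genotype cannot be told apart. *Ctnnb1* averaged 21625 normalized counts in Ctrl and 21397 in βCat-GOF mice (log2 fold change -0.023, edgeR adjusted p = 0.91), but gene counts are blind to a missing exon 3. βCat-GOF mice 1 and 2, whose labels share the stem 1369-2, stood apart from the other 4 in several transcripts, and values without both are given where they bear on a member.

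Among all genes tested, 323 (2.16%) were called higher and 228 (1.52%) lower in βCat-GOF adrenals. Of the 10 FGF feedback genes, 2 were called higher and 0 lower. With a fold above 1.4 and a mean above 100 normalized counts as further cut-offs, 1 member passed, *Etv5*, beside 222 of all genes (1.48%). Groups that did not overlap, with every βCat-GOF mouse above every Ctrl mouse, were found for 1 member, *Etv4*, and for 241 of all genes (1.61%). At an unadjusted p under 0.05, 5 members were higher (*Etv1*, *Etv4*, *Etv5*, *Spry4* and *Spred2*) and 0 lower, beside 9.73% of all genes higher. DESeq2, run as another test, called the same 5 members higher and 0 lower, beside 672 of its 16901 genes (3.98%) higher. The log2 fold change was above 0 in 7 of 10 members, and its median was 0.40 over the members and 0.00011 over all genes tested.

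**Figure D1:**
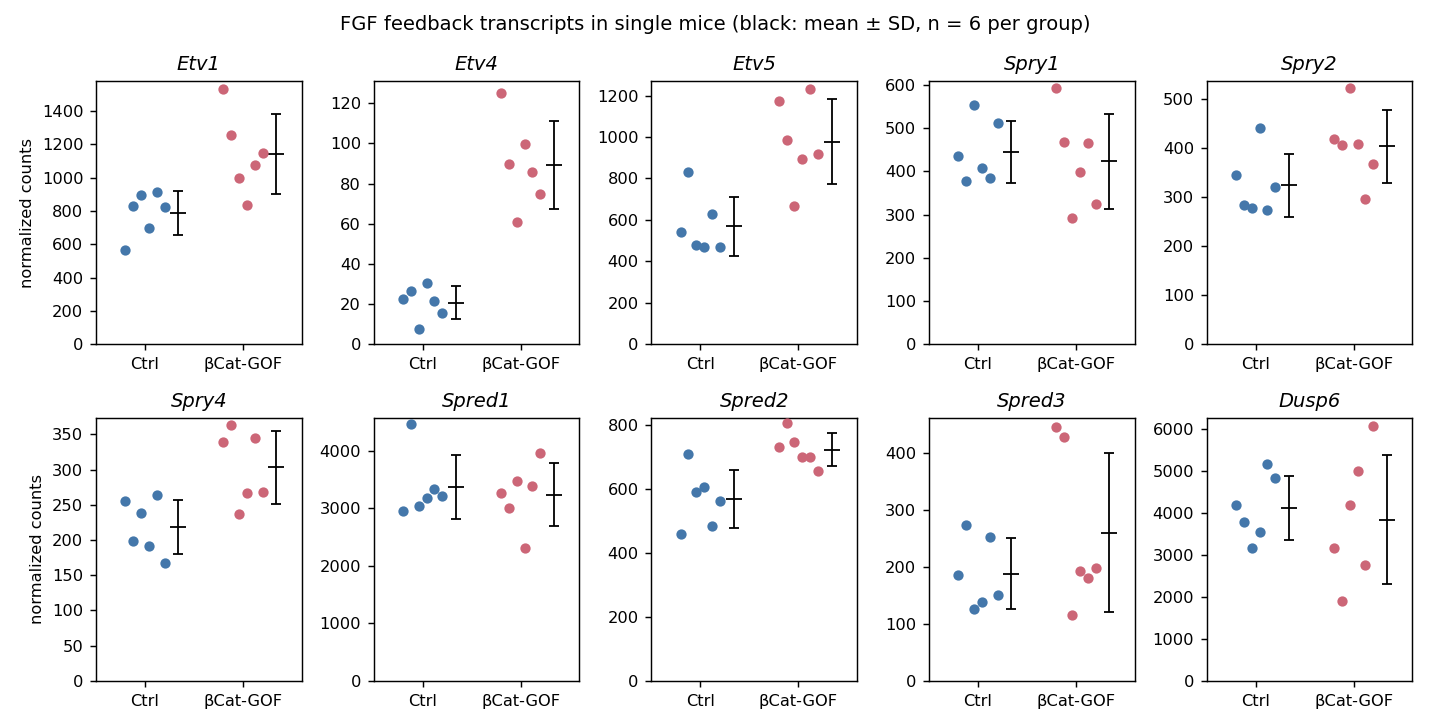
Normalized counts (y axis, from 0) of the 10 FGF feedback transcripts in every Ctrl (blue) and βCat-GOF (red) mouse, with the mean ± SD of 6 mice in black. *Etv4* is the member whose groups do not overlap, and *Dusp6* has its lowest and its highest mouse in the βCat-GOF group.

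*Etv4* (ENSMUSG00000017724; GRCm38 chromosome 11, 101769742 to 101785371, minus strand) encodes a PEA3 factor that is among the transcripts most closely tied to FGF receptor activity in many tissues. It had 7.62 normalized counts in the lowest Ctrl mouse, a median of 22.02 and 30.5 in the highest, against 60.8, 87.7 and 125 in βCat-GOF adrenals. Every βCat-GOF mouse lay above every Ctrl mouse. The means were 20.7 ± 8.18 and 89.3 ± 22.1 (SD, n = 6 each), a 4.29-fold rise with a 95% interval of 2.77 to 6.64 (log2 fold change 2.10, standard error 0.29, edgeR adjusted p = 0.0020). The transcript was scarce, with 10 to 32 raw counts per Ctrl library and 63 to 162 per βCat-GOF library, and its mean of 55.0 normalized counts over the 12 mice is what kept it from the cut-off of 100. The rise was called in 12 of 12 fits that left out 1 mouse, with log2 fold changes of 1.92 to 2.24.

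*Etv5* (ENSMUSG00000013089; chromosome 16, 22381309 to 22439719, minus strand), a PEA3 factor also known from epithelial branching, was the other member that rose. Ctrl mice had from 470 to 833 normalized counts with a median of 510, and βCat-GOF mice from 668 to 1230 with a median of 953. The groups overlapped through Ctrl mouse 2, at 833, while the other 5 Ctrl mice lay below the lowest βCat-GOF mouse. Means were 570 ± 143 and 978 ± 204 (SD, n = 6 each), a 1.71-fold rise with a 95% interval of 1.32 to 2.21 (log2 fold change 0.77, standard error 0.17, edgeR adjusted p = 0.027). The call rests on single mice. It was kept in 9 of 12 fits without 1 mouse and lost without Ctrl mouse 4 (log2 fold change 0.72, edgeR adjusted p = 0.062), without Ctrl mouse 6 (0.72, adjusted p = 0.067) and without βCat-GOF mouse 5 (0.70, adjusted p = 0.053), the mouse whose label begins with 1387.

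*Etv1* (ENSMUSG00000004151; chromosome 12, 38779380 to 38870484, plus strand), the third PEA3 factor, had 568 to 914 normalized counts in Ctrl mice (median 827) and 837 to 1532 in βCat-GOF mice (median 1112). All but 1 of the βCat-GOF mice lay above the highest Ctrl mouse, and the exception, mouse 4, was at 837. The means of 788 ± 131 and 1141 ± 238 (SD, n = 6 each) correspond to a log2 fold change of 0.53 with a 95% interval of 0.21 to 0.85, which did not pass the test (edgeR adjusted p = 0.073). It passed with DESeq2 (adjusted p = 0.016) and, in edgeR, when βCat-GOF mouse 4 was left out (log2 fold change 0.60, adjusted p = 0.038). Without βCat-GOF mice 1 and 2, which had the highest values of 1532 and 1259, the log2 fold change was 0.35 (edgeR adjusted p = 0.11).

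For the 3 PEA3 factors the files hold no measurement on the promoter itself. The sequences just upstream of the *Etv1* and *Etv5* starts are shown because these transcripts had the largest differences among members in the promoter table, and that of *Dusp6* as a member whose groups had nearly the same mean. All are from RefSeq on GRCm38.p6, 5′ to 3′ on the gene's strand and outside annotated exons, with matches to the core TCF/LEF motif CTTTGA (or TCAAAG, the same letters on the other strand) in capitals.
Etv1, chr12:38779832-38780081, plus strand: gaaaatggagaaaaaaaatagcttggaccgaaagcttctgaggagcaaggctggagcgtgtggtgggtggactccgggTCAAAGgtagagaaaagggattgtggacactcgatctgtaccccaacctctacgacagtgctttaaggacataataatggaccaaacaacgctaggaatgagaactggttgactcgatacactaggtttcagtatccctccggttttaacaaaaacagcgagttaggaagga
Etv5, chr16:22439720-22439820, minus strand: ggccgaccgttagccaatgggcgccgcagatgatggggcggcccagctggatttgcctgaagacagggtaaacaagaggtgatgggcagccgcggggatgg
Dusp6, chr10:99262981-99263230, plus strand: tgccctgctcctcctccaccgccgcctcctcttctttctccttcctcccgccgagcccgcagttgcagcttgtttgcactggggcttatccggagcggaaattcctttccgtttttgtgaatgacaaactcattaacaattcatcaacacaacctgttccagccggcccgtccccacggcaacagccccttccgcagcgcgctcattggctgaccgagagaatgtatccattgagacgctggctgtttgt
The *Etv1* window begins within the gene, upstream of one of its internal starts. The TCF/LEF core was searched because β-catenin acts on transcription with TCF/LEF factors, and the ETS core CCGGAA because ETS factors bind it. Windows of 250 bases upstream of a start were available for 8 members, 10 windows in all. There was no window for *Etv4* or *Spry4*, so neither was searched for a motif. On either strand CTTTGA was present in 1 of these 10 windows, that of *Etv1*, and in 13.8% of 32851 RefSeq promoter windows of the same length. CCGGAA was present in 0 of 10 and in 12.0% of all windows. These counts describe the letters of the windows only.

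*Spry4* (ENSMUSG00000024427; chromosome 18, 38586247 to 38601415, minus strand) encodes a Sprouty protein that restrains signalling between receptor and Raf. Its Ctrl mice ranged from 168 to 263 normalized counts (median 218) and its βCat-GOF mice from 237 to 364 (median 304). Of the 6 βCat-GOF mice, 5 lay above the highest Ctrl mouse. The log2 fold change of 0.46 (95% interval 0.14 to 0.79, standard error 0.15) did not pass edgeR's test (adjusted p = 0.11) and passed DESeq2's (adjusted p = 0.036).

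*Spry2* (ENSMUSG00000022114; chromosome 14, 105891947 to 105896819, minus strand), the Sprouty most often studied in organ development, had 275 to 442 normalized counts in Ctrl mice (median 302) and 297 to 524 in βCat-GOF mice (median 408). The ranges overlapped for most of their length. Its log2 fold change of 0.31 had a 95% interval from -0.012 to 0.63 (edgeR adjusted p = 0.26).

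*Spry1* (ENSMUSG00000037211; chromosome 3, 37639947 to 37644598, plus strand) was at 378 to 554 normalized counts in Ctrl mice (median 422) and 292 to 594 in βCat-GOF mice (median 431). Both the lowest and the highest of the 12 mice were βCat-GOF. Its log2 fold change was -0.073 with a 95% interval from -0.44 to 0.29 (edgeR adjusted p = 0.85). Of its exon bases, 24.43% are shared with *Gm42922* on the opposite strand, and whether the counting used the strand is not given in the sources used here.

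*Spred2* (ENSMUSG00000045671; chromosome 11, 19924375 to 20024026, plus strand) encodes a Spred protein that acts with neurofibromin on Ras. Ctrl mice had 459 to 710 normalized counts (median 578) and βCat-GOF mice 657 to 806 (median 716). Only Ctrl mouse 2, at 710, reached the βCat-GOF range. The means were 569 ± 91.0 and 724 ± 50.9 (SD, n = 6 each), with a log2 fold change of 0.34 (95% interval 0.11 to 0.57, edgeR adjusted p = 0.10). Without Ctrl mouse 2 the log2 fold change was 0.41 and passed the test (edgeR adjusted p = 0.047), and DESeq2 called it over all 12 mice (adjusted p = 0.040).

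*Spred1* (ENSMUSG00000027351; chromosome 2, 117121374 to 117182279, plus strand), whose protein likewise brings neurofibromin to the membrane, was the most abundant Spred transcript. It ranged from 2952 to 4463 normalized counts in Ctrl mice (median 3201) and from 2312 to 3953 in βCat-GOF mice (median 3326). The group ranges overlapped, and Ctrl mouse 2 stood far above the other Ctrl mice. The log2 fold change was -0.068, with a 95% interval from -0.34 to 0.21 (edgeR adjusted p = 0.81).

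*Spred3* (ENSMUSG00000037239; chromosome 7, 29158829 to 29170411, minus strand), the least abundant of the Spred genes, had 126 to 274 normalized counts in Ctrl mice (median 168) and 116 to 445 in βCat-GOF mice (median 195). βCat-GOF mice 1 and 2, at 445 and 428, were separate from the other 4, at 116 to 197. The log2 fold change was 0.47 with a 95% interval from -0.24 to 1.17 (edgeR adjusted p = 0.45), and without those 2 mice it turned to -0.15 (adjusted p = 0.74).

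*Dusp6* (ENSMUSG00000019960; chromosome 10, 99263231 to 99267489, plus strand), the ERK phosphatase, was the most abundant member. Ctrl mice had 3161 to 5155 normalized counts (median 3990) and βCat-GOF mice 1907 to 6059 (median 3669). The lowest and the highest of the 12 values both came from βCat-GOF mice, and the SD was 1532 in that group against 765 in Ctrl. The means of 4110 and 3842 gave a log2 fold change of -0.11 with a 95% interval from -0.60 to 0.38 (edgeR adjusted p = 0.83). Without βCat-GOF mouse 2, the lowest, it was 0.041, and without mice 1 and 2 it was 0.12.

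**Figure D2:**
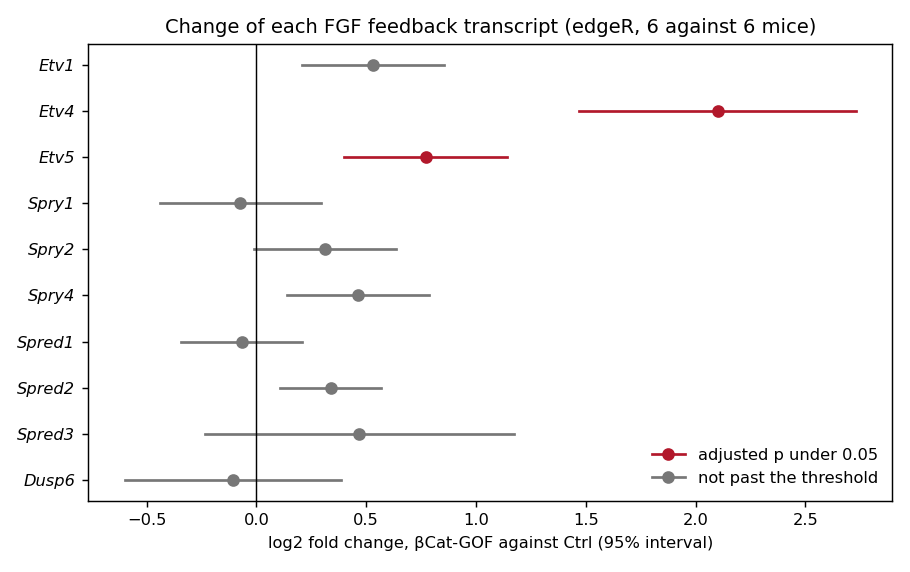
Log2 fold change of each FGF feedback transcript in βCat-GOF against Ctrl adrenals (x axis) with its 95% interval from edgeR's quasi-likelihood fit, red where the adjusted p is under 0.05. The intervals of *Spry1*, *Spry2*, *Spred1*, *Spred3* and *Dusp6* include 0.

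Levels were set against each other per length, in RPKM, which divides counts by the merged exon length and the size of the library. In Ctrl adrenals *Dusp6* had the highest level, 65.7 ± 12.3 RPKM (SD, n = 6), followed by *Spred1* at 24.8 ± 4.23 RPKM, and no mouse's *Spred1* level reached any mouse's *Dusp6* level. Next came *Spry2*, *Spry1*, *Etv5* and *Spred2*, with mean levels from 7.78 down to 6.17 RPKM and ranges that overlapped. *Etv1* (2.97 RPKM), *Spry4* (2.30 RPKM) and *Spred3* (1.51 RPKM) followed, each overlapping its neighbour in level. *Etv4* was lowest at 0.334 ± 0.133 RPKM, with all 6 Ctrl mice under the level of any other member. In βCat-GOF adrenals the mean level of *Etv5* ranked after *Dusp6* and *Spred1*, at 11.9 ± 2.57 RPKM, overlapping *Spry2* at 9.63 ± 1.75 RPKM. *Etv4* reached 1.44 ± 0.379 RPKM and remained the lowest in mean, now with a range that overlapped *Spred3* at 2.09 ± 1.15 RPKM. *Dusp6* and *Spred1* were the most abundant feedback transcripts in both groups, and the transcript with the largest fold change was the scarcest.

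**Figure D3:**
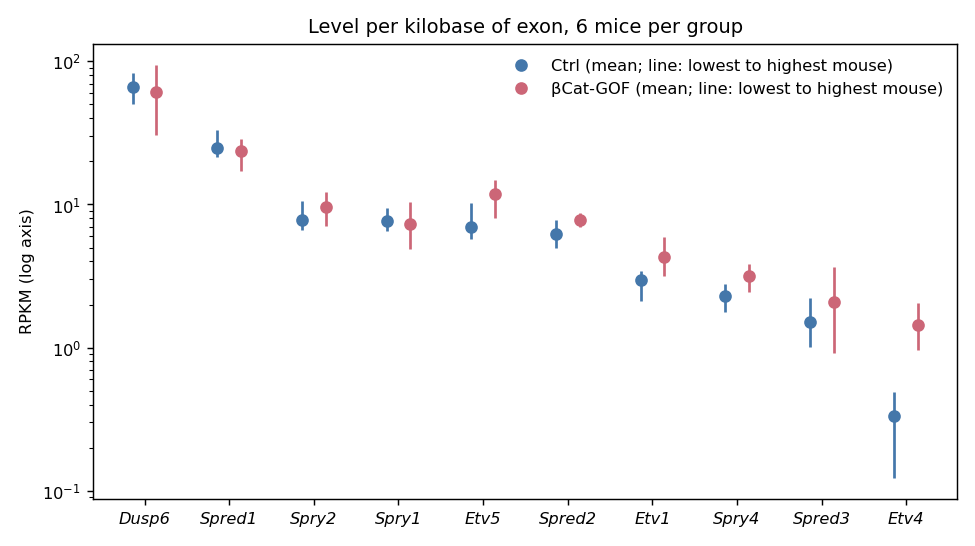
Level per kilobase of exon (RPKM, log axis) of the 10 FGF feedback transcripts in Ctrl (blue) and βCat-GOF (red) adrenals, ordered by the Ctrl mean, as group means with lines from the lowest to the highest of 6 mice. *Etv4* is lowest in both groups, at 0.334 and 1.44 RPKM.

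Members were also compared with each other within each mouse, as the difference of their log2 CPM, which does not depend on library scaling. Over the 45 pairs of members, this gap differed between the groups at a Benjamini-Hochberg adjusted p under 0.05 in 15 (exact permutation test over the 12 mice, two-sided, smallest possible p 0.0022). The pairs were compared after the values were seen, and pairs of other genes were not examined, so no background share stands beside the 15. *Etv4*, already called by itself with the largest fold change, shifted against each of the 9 other members, so these pairs largely restate that call. It lay below *Etv5* in log2 CPM and came closer to it by 1.39 in βCat-GOF mice (exact p = 0.0022, adjusted p = 0.011), and closer to *Dusp6* by 2.35 (exact p = 0.0022, adjusted p = 0.011), in each case with no overlap between the groups. *Etv5* shifted against *Spred1* by 0.85 (exact p = 0.0022, adjusted p = 0.011) and against *Spry1* by 0.88 (exact p = 0.0065, adjusted p = 0.024). Against *Dusp6* its shift of 0.96 was not past the threshold after adjustment (exact p = 0.030, adjusted p = 0.085). *Etv1* shifted against *Spred1* by 0.59 (exact p = 0.0065, adjusted p = 0.024) and against *Spry1* by 0.62 (exact p = 0.011, adjusted p = 0.035). *Etv5* and *Etv1* were each higher by themselves at edgeR's unadjusted p under 0.05, so their pairs also largely restate those differences.

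Within families, the excess of *Spry1* over *Spry4* in log2 CPM went from 1.03 in Ctrl to 0.46 in βCat-GOF mice (exact p = 0.011, adjusted p = 0.035). That of *Spred1* over *Spred2* went from 2.56 to 2.14 (exact p = 0.015, adjusted p = 0.045). *Spry4* and *Spred2* were likewise higher by themselves at edgeR's unadjusted p under 0.05, so both shifts largely restate those differences. The shift of *Etv5* against *Etv1* was 0.26, with overlapping groups (exact p = 0.22, adjusted p = 0.33).

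Mouse by mouse, the members did not rise and fall as 1 block. Each βCat-GOF mouse was above the Ctrl median in 8 or 9 of the 10 members, and each Ctrl mouse in 3 to 7. That median comes from the Ctrl mice themselves, so for each member they lie evenly on both sides of it by construction. The same count was not made over all genes tested, and the contrast is not read as a trait of the members. Of the βCat-GOF mice, mouse 1 was the highest of its group in 4 members (*Etv1*, *Etv4*, *Spry1* and *Spred3*), and mouse 3 the lowest of its group in 5 (*Etv4*, *Etv5*, *Spry1*, *Spry4* and *Spred3*) while having the highest *Spry2*. Ctrl mouse 2 was the highest of its group in *Etv5*, *Spred1*, *Spred2* and *Spred3*. The βCat-GOF mouse with the least *Dusp6*, mouse 2, had the most *Spry4* and *Spred2* of the 12 mice.

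**Figure D4:**
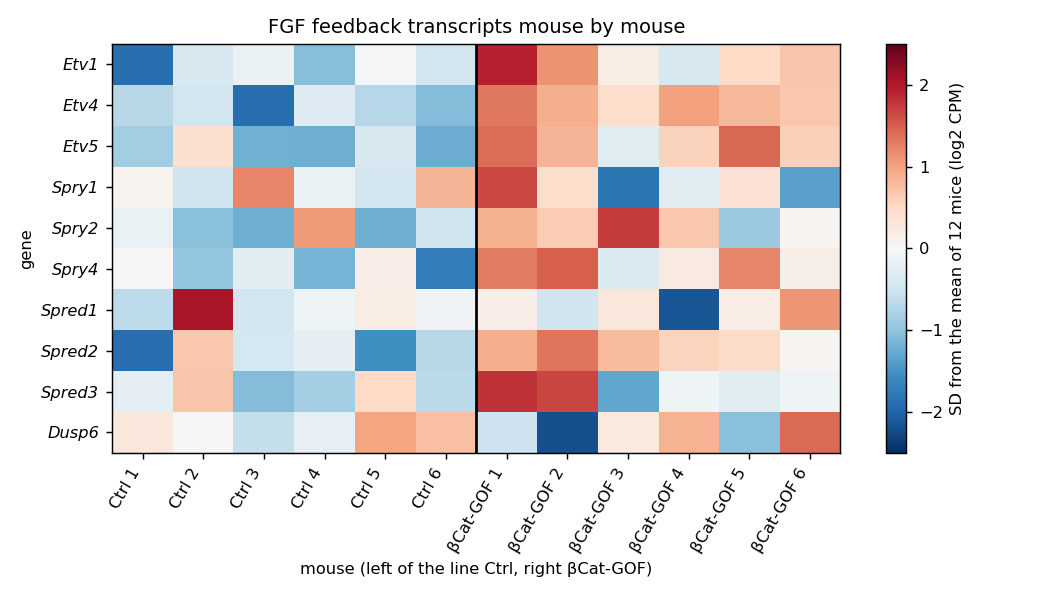
Each FGF feedback transcript (row) in each mouse (column), as log2 CPM standardized over the 12 mice (colour, in SD from the mean of the row). *Etv4* is above its mean in the 6 βCat-GOF mice and below it in the 6 Ctrl mice, whereas *Spry1*, *Spred1* and *Dusp6* hold both colours in each group.

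*Fgfr2*, which encodes an FGF receptor of epithelia, was the receptor gene that was called among the 5 tested. Its normalized counts were 3978 ± 380 in Ctrl mice and 6763 ± 630 in βCat-GOF mice (SD, n = 6 per group), and the groups did not overlap (log2 fold change 0.76, standard error 0.091, edgeR adjusted p = 0.00066). Per length its level went from 19.3 to 32.6 RPKM, below *Dusp6* and above the *Etv* genes in both groups. Whether mice with more *Fgfr2* had more of a feedback transcript was examined within each group of 6. None of the 20 correlations passed the threshold after adjustment (0 of 20, exact permutation test over 720 pairings, two-sided, smallest possible p 0.0014), and 4 had an unadjusted p under 0.05. For *Etv4*, Pearson's r was 0.75 in Ctrl (exact p = 0.14, adjusted p = 0.55; Spearman's rho 0.14, exact p = 0.80, adjusted p = 1) and 0.22 in βCat-GOF mice (exact p = 0.65, adjusted p = 1.00; rho 0.31, exact p = 0.56, adjusted p = 0.94). Without the 2 mice farthest from the *Fgfr2* median r was -0.15 in Ctrl and -0.44 in βCat-GOF mice, so the value in Ctrl rests on those mice.

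The lowest p was that of *Spred1* in βCat-GOF mice (r = -0.95, exact p = 0.015, adjusted p = 0.22; rho = -0.71, exact p = 0.14, adjusted p = 0.54), and without the 2 farthest mice r was -0.34. *Dusp6* in Ctrl mice had r = 0.83 (exact p = 0.025, adjusted p = 0.22; rho 0.83, exact p = 0.058, adjusted p = 0.54) and r = 0.17 without those mice. *Spred3* in Ctrl mice had r = 0.75 (exact p = 0.043, adjusted p = 0.22; rho 0.89, exact p = 0.033, adjusted p = 0.54) and r = 0.80 without them. *Spry1* in Ctrl mice had r = -0.78 (exact p = 0.036, adjusted p = 0.22; rho -0.71, exact p = 0.14, adjusted p = 0.54) and r = -0.20 without them.

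For the members that were called, the genes with the most similar profile were sought as the smallest root mean square distance between log2 profiles standardized over the 12 mice, among genes with a mean above 100 normalized counts. Nearest to *Etv4* were *Fgfr2* (distance 0.37), *Alpk1* (0.37) and *Aifm1* (0.39), which were all called higher, with log2 fold changes of 0.76, 1.47 and 0.47 (edgeR adjusted p = 0.00066, 0.00017 and 0.0044). Nearest to *Etv5* were *Tbx3* (0.30), a T-box factor gene, *Hoxb5* (0.34), a homeobox gene, and *Prickle1* (0.38), of which *Prickle1* was called higher (log2 fold change 0.61, edgeR adjusted p = 0.023) while *Tbx3* (0.23, adjusted p = 0.17) and *Hoxb5* (0.42, adjusted p = 0.073) were not. These distances include the difference between the groups and describe likeness only.

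Genes of the cascade that leads to the feedback transcripts were grouped by role. Of 7 receptor and co-receptor genes, 5 were tested and 1 was called, *Fgfr2*. *Fgfr4* had 774 ± 287 normalized counts in Ctrl and 1401 ± 490 in βCat-GOF mice (log2 fold change 0.84, edgeR adjusted p = 0.11; DESeq2 adjusted p = 0.036). *Fgfr3* had a log2 fold change of 0.57 (edgeR adjusted p = 0.15) and *Fgfr1* one of 0.13 (adjusted p = 0.57). *Kl* and *Klb*, co-receptors of the endocrine FGFs, had means of 1.55 to 5.17 normalized counts and were not tested.

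Of 22 genes of the FGF family, 12 had enough counts to test, and edgeR called 0 in either direction (at an unadjusted p under 0.05, 4 higher and 1 lower), with a median log2 fold change of -0.017. The 12 include *Fgf11*, *Fgf12*, *Fgf13* and *Fgf14*, which are not counted as ligands of FGF receptors. The 1 lower gene was *Fgf14*. DESeq2 called *Fgf20* (adjusted p = 0.023), which had a log2 fold change of 1.39 in edgeR (adjusted p = 0.10). *Fgf18* had 1.18 (edgeR adjusted p = 0.096), *Fgf14* -0.84 (adjusted p = 0.23) and *Fgf3* -0.68 (adjusted p = 0.37). *Fgf1*, the acidic FGF gene, had 797 ± 94.2 and 1123 ± 318 normalized counts (log2 fold change 0.49, edgeR adjusted p = 0.14).

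Downstream of the receptors, edgeR and DESeq2 called 0 of the 12 adaptor genes, 0 of the 14 genes of Ras, Raf, MEK, ERK and their partners and 0 of the 6 Ras GTPase-activating proteins. At an unadjusted p under 0.05 there were 1 higher and 1 lower among the adaptors, 2 higher among the kinases and 0 among the GTPase-activating proteins. Median log2 fold changes of these lists were -0.018, 0.10 and 0.049. The 4 largest among the adaptors were *Ptpn11* (0.20), *Shc1* (-0.19), *Crkl* (0.12) and *Frs3* (-0.11). Among the kinases *Rps6ka3* had 0.27, *Rps6ka2* -0.20 and *Mapk3* 0.18. Among the GTPase-activating proteins the 4 largest were *Rasa3* (-0.52, edgeR adjusted p = 0.32), *Nf1* (0.19), *Rasa1* (0.11) and *Dab2ip* (0.090).

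Among 12 other feedback regulators of FGF and ERK, 11 were tested and 1 was called, *Dusp14*, a dual-specificity phosphatase gene. It had 108 to 127 normalized counts in Ctrl mice and 182 to 286 in βCat-GOF mice, with no overlap. The means of 119 ± 7.77 and 224 ± 45.5 gave a log2 fold change of 0.90 (standard error 0.14, edgeR adjusted p = 0.0038), while the log2 fold change of *Dusp6* was -0.11. *Spry3* had a log2 fold change of 0.90 with wide spread (edgeR adjusted p = 0.18), *Flrt1* one of -0.53, *Flrt3* -0.46 and *Il17rd*, a membrane inhibitor of FGF signalling, -0.32 (adjusted p = 0.48), and the median of this list was -0.043.

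Genes that repress the PEA3 factors or lead to their degradation gave 0 calls of 5 with edgeR and with DESeq2 (0 at an unadjusted p under 0.05), with a median log2 fold change of 0.020. These were *Atxn1l* (-0.11), *Det1* (-0.081), *Atxn1* (0.051) and *Rfwd2* (0.044), which encodes the ubiquitin ligase COP1, beside *Cic*, whose log2 fold change was 0.020. Of 13 other ETS factor genes, edgeR called 0 (1 higher and 3 lower at an unadjusted p under 0.05) and DESeq2 called *Ets2*. *Ets2* had 1238 ± 86.9 and 1507 ± 101 normalized counts with no overlap between groups (log2 fold change 0.28, edgeR adjusted p = 0.053; DESeq2 adjusted p = 0.0057). *Erf* (0.32), *Elf2* (0.28) and *Erg* (-0.27) were the others with large values, and the median of the list was -0.040.

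Early response genes, which ERK and many other stimuli induce within minutes, varied widely among the mice of a group. Of 12, 10 were tested, edgeR called 0 (5 higher and 0 lower at an unadjusted p under 0.05), DESeq2 called *Fosb* and *Dusp1*, and the median log2 fold change was 0.69. *Fos* was at 25.1 to 250 normalized counts in Ctrl mice, and in βCat-GOF mice 1 and 2 it was at 1891 and 853 while the other 4 had 47.4 to 145. *Fosb* was at 320 and 1660 in βCat-GOF mice 1 and 2, at 280 in mouse 5 and at most 45.0 in the rest of the 12 mice. Log2 fold changes were 3.73 for *Fosb* (edgeR adjusted p = 0.051), 2.21 for *Fos* (adjusted p = 0.14), 1.57 for *Junb* (adjusted p = 0.18) and 1.03 for *Dusp1* (adjusted p = 0.091). βCat-GOF mice 1 and 2 are also those with the highest *Etv1* and *Spred3*. Without both mice 2 members were called, *Etv4* with a log2 fold change of 1.93 (edgeR adjusted p = 0.0039) and *Etv5* with 0.69 (adjusted p = 0.038). βCat-GOF mouse 5, with *Fosb* at 280, stayed in that fit. Without mouse 5 alone *Etv4* had 2.12 (edgeR adjusted p = 0.0040) and *Etv5* 0.70 (adjusted p = 0.053). The part of the early response differences in the member values was not tested.

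Of 15 other receptor tyrosine kinase genes, 1 was called higher and 0 lower, with a median log2 fold change of -0.22. *Mst1r*, the receptor of macrophage-stimulating protein, had 222 ± 74.4 and 775 ± 466 normalized counts without overlap (log2 fold change 1.80, edgeR adjusted p = 0.016), with 1428 and 1309 in βCat-GOF mice 1 and 2. *Kit* (-0.95, edgeR adjusted p = 0.063) and *Erbb3* (-0.60, adjusted p = 0.30) did not pass in edgeR, and DESeq2 called *Kit* lower (adjusted p = 0.0099).

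**Figure D5:**
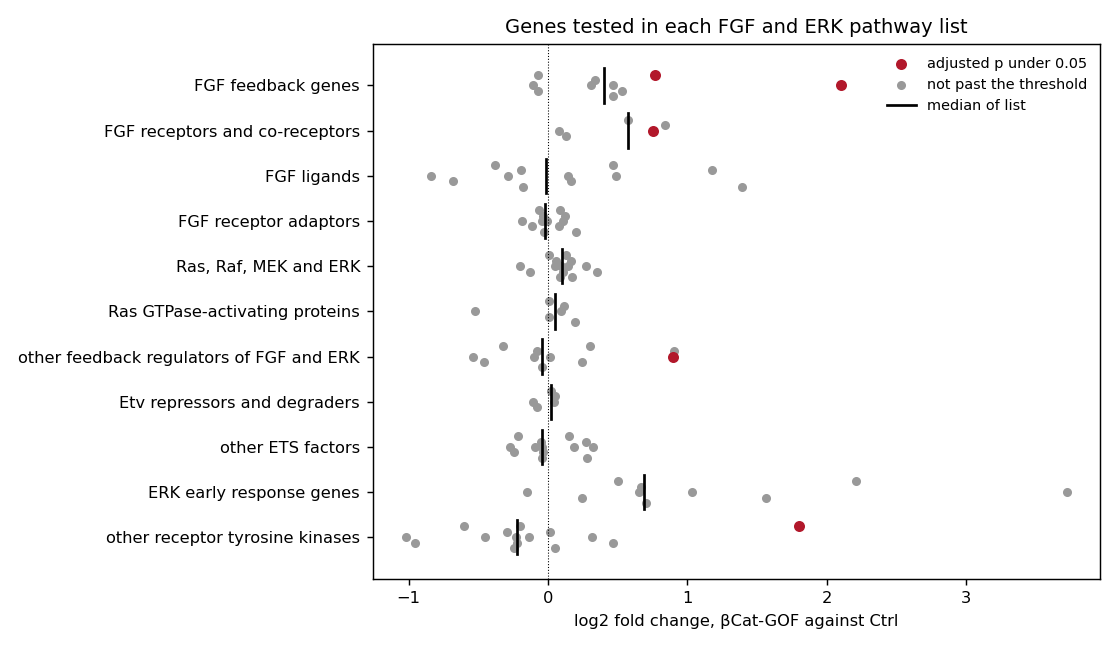
Log2 fold change in βCat-GOF against Ctrl adrenals (x axis) of each gene tested in the FGF feedback set and in 10 lists of the same pathway, red where edgeR's adjusted p is under 0.05, with the list median as a black bar. The red points are *Etv4* and *Etv5*, *Fgfr2*, *Dusp14* and *Mst1r*.

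Markers of zG cells were compared between the same groups. Of 7, 4 were called higher (*Agtr1b*, *Vsnl1*, *Agtr1a* and *Dab2*) and 0 lower, with a median log2 fold change of 0.79, none of them at 0 in any mouse. Their summed level was 25801 to 39953 normalized counts in Ctrl and 35859 to 63557 in βCat-GOF mice, highest in mice 1 and 2. *Cyp11b2*, the defining enzyme of aldosterone synthesis, had 5162 ± 2063 and 4544 ± 2824 normalized counts (log2 fold change -0.18, edgeR adjusted p = 0.82). The Cre allele lies at this locus. Because the labels do not settle whether Ctrl mice carry Cre, the number of unmodified *Cyp11b2* alleles may differ between the groups, which was not tested. *Wnt4* (log2 fold change 0.79, edgeR adjusted p = 0.095) and *Hsd3b6* (0.15, adjusted p = 0.91) were also not called by edgeR. DESeq2 called *Wnt4* higher (adjusted p = 0.021). The part of the zG markers in the *Etv4* and *Etv5* results was not tested. In RNA of an entire gland more cells of a type and more RNA per cell cannot be told apart.

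Other cell types gave fewer calls. Of 4 zF markers, 1 was called higher, *Akr1b7*, and the summed level was 316204 to 392054 in Ctrl and 192453 to 563266 in βCat-GOF mice, lowest in mice 1 and 2. Of 7 medullary markers 0 were called (0 higher and 1 lower at an unadjusted p under 0.05, and 0 with DESeq2), with sums of 78415 to 239331 and 99144 to 191301. Of 5 macrophage markers 2 were called lower, *Adgre1* and *Mrc1*, with sums of 2137 to 3258 and 1817 to 2916. Their part in the member values was not tested either.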

How the data were processed

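RNA sequencing of whole adrenals from 12 female mice was used, 6 Ctrl and 6 βCat-GOF, grouped by their labels. According to the paper's methods and the submitters' processing notes, the authors removed adapters (cutadapt), mapped the reads to mm10 (STAR) and assigned uniquely mapped ones to genes with featureCounts 1.4.4. The authors deposited the resulting raw counts. They also deposited a normalized signal, which is the same counts scaled by 1 constant per library. The annotation release and the strand setting are not given in the sources used here. All tests used the counts, the deposited signal gave gene symbols and served as a check, and no column was left unmapped (0).

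The groups were compared over all 12 mice by edgeR's two-sided quasi-likelihood test after TMM and filterByExpr (edgeR 4.0.16, limma 3.58.1, R 4.3.3), with Benjamini-Hochberg adjustment over all genes tested. The standard error is the log2 fold change divided by the square root of F. Alternatives were DESeq2 1.42.0 without shrinkage (the submitters' notes name DESeq2 1.6.3), its size factors in edgeR, no filter, at least 10 counts per mouse, the cut-offs of fold 1.4 and mean 100, and leaving out each mouse, the mice whose labels repeat a stem, or the mouse 1387-8; leaving out 1369-2ear and 1369-2 together was added after the values were seen, as were the differences between pairs of members. Log2 CPM (counts scaled to library size) used an offset of 0.5 counts. Within pairs of libraries sharing a stem, chi-square per degree of freedom was 41.9 to 45.8 (16.8 to 145 in the other pairs of a group), far above sampling noise. The pair 1369-2ear and 1369-2 was at 41.9, while 1369-2ear was at 85.1 to 145 against the other 4 βCat-GOF mice. All 12 were kept as separate mice. Positions and exon lengths came from GENCODE M21 on GRCm38, the assembly of mm10. Depth limits precision for scarce genes, and 3 counts were between 0.117 and 0.222 CPM.

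Genes named are the members, *Fgfr2*, at most 4 tested genes with the largest changes in each pathway list and any called, and the 3 nearest profiles of each called member. *Kl*, *Klb*, *Fgf1* and *Cic* were named after their values were seen, as were *Ctnnb1* and the cell type markers as checks. Some genes that this rule selects are not reported here. Members and lists were chosen with earlier results of these data known. The scripts were tested on simulated counts. Python 3.11.15 and matplotlib 3.10.9 drew the figures. Protein and imaging data were not used here.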

Additional observations from a re-analysis of the deposited data

Results flagged for a closer look

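*Spred1* in Ctrl mouse 2 was flagged because that mouse, at 4462.69 normalized counts, lay far above the other 5 Ctrl mice, which ranged from 2951.56 to 3336.27. The gap was 0.745 of the range of the group, above Dixon's 95% critical value for 6 mice. It was 1 flag among 22 groups examined, where chance flags about 1 group in 20. Without this mouse the log2 fold change of *Spred1* was 0.032 in place of -0.068 (edgeR adjusted p = 0.91), and no call of *Spred1* depended on it.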

How the results depend on the processing

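Of the values recomputed under the alternatives, 229 kept their direction, their side of the threshold and, for counts, stayed within 1.5 times. Of the rest, 25 counts moved further, 5 fold changes lost the call, 5 gained it and 7 changed sign. The fit without the mouse 1387-8 is also the fit without βCat-GOF mouse 5, and its values enter under both names. *Etv4* was called under all alternatives run except the cut-off on the mean, which it does not reach. DESeq2 called 672 genes higher and 561 lower and 5 members higher, adding *Etv1* (0.54), *Spry4* (0.47) and *Spred2* (0.35; log2 fold changes). Without the mice whose labels repeat a stem 346 genes were lower, 1 member was called, and *Etv5* was at 0.63 (adjusted p = 0.10). Without the mouse 1387-8 these values were 125, 1 and 0.70 (adjusted p = 0.053). With all 3 cut-offs 130 genes were lower and 1 member was called. Without both 1369-2ear and 1369-2, 905 genes were higher and 835 lower, and *Spred3* (-0.15) and *Dusp6* (0.12) changed sign. Leaving out each mouse gave 195 to 560 genes higher, 92 to 395 lower and 1 to 3 members higher. The log2 fold changes were then 0.43 to 0.60 for *Etv1*, 0.70 to 0.91 for *Etv5*, -0.19 to 0.0091 for *Spry1*, -0.13 to 0.032 for *Spred1*, 0.29 to 0.41 for *Spred2* and -0.29 to 0.041 for *Dusp6*. *Spry1* changed sign without Ctrl mouse 3 (0.0055) and βCat-GOF mouse 3 (0.0091), *Spred1* without Ctrl mouse 2 (0.032) and βCat-GOF mouse 4 (0.011), and *Dusp6* without βCat-GOF mouse 2 (0.041). The lowest count of genes called came without Ctrl mouse 6 and the highest without βCat-GOF mouse 1. Fewer mice are tested in these fits, and the counts of genes called went both down and up. The cause was not tested. No paired analysis was possible because the labels number no mice across groups.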

Other observations

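Markers of cell types not described beside the members were called in 0 of 5 cases for the capsule, 0 of 6 for endothelium, 0 of 5 for adipocytes, 0 of 3 for smooth muscle and pericytes, 0 of 3 for Schwann cells, 0 of 2 for the X-zone and 0 of 4 for dividing cells with edgeR. At an unadjusted p under 0.05 these lists held 1, 0, 1, 1, 0, 0 and 3 higher and 0, 0, 0, 1, 0, 0 and 0 lower, and DESeq2 called *Acta2* higher and *Myh11* lower. The X-zone, a transient inner cortical layer of the mouse, varied most between mice, with summed *Akr1c18* and *Pik3c2g* of 4999 to 107512 normalized counts in Ctrl and 2188 to 126181 in βCat-GOF adrenals. Dividing-cell markers had a median log2 fold change of 0.68, with sums of 462 to 849 in Ctrl and 599 to 1702 in βCat-GOF mice.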
